A study of Mus musculus with 48 samples.

Results

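Female offspring lacking 1 copy of the serotonin transporter gene were compared by hippocampal RNA. Prenatally stressed animals with intact social behaviour were set against same-genotype animals whose dams had been left undisturbed. The comparison took in 16 of the 48 RNA libraries of the series, chosen by the genotype and condition in their labels. They were 9 libraries of socially unaffected (SU) 5-Htt+/- offspring, named PS-resilient in the labels, and 7 libraries of control (C) 5-Htt+/- offspring. All 16 came from C57BL/6 mice aged 3 months that carried the Slc6a4tm1Kpl allele, a disruption of the transporter gene present in every tissue, inherited from a heterozygous sire mated to a C57BL6/J dam. Dams of SU offspring had been restrained in 3 sessions daily between embryonic days 13 and 17, whereas control dams were left undisturbed. SU offspring were set apart from their socially affected (SA) counterparts, which had the same prenatal stress (PS), by time spent near a social target in a 3-chamber test. SU offspring are thus the part of the exposed animals selected for intact social behaviour. According to the study's methods, offspring of both groups had gone through a behavioural test battery before they were killed. They had also been restrained as adults, with blood sampling before and after. Both hippocampi of an animal were merged before RNA extraction. The labels name no litter, so some animals of a group may be sisters, and p-values then measure only spread between libraries. For genes, that spread was estimated within all 6 groups of the series together.

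The serotonin transporter (5-HTT, gene Slc6a4) clears serotonin from the extracellular space, and mice with a single functional copy serve as a model of reduced clearance. The hippocampus is rich in receptors for corticosteroids, the hormones released under stress. Once bound to hormone, the glucocorticoid receptor acts in the nucleus on a set of target genes that alter ion transport and metabolism or restrain inflammatory signalling. Oligodendrocytes, which wrap axons in myelin, also respond to stress hormones.

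Sequencing depth was similar in both groups. Total counts ran from 18193105 to 33813066 in controls and from 19196053 to 38213754 in SU libraries, with medians of 24133643 and 24116774. All 13 markers of hippocampal neurons lay above 1 CPM (counts scaled to a common library total) in each of the 16 libraries. Slc6a4, on chromosome 11 of GRCm38 from 76998603 to 77032340, was read at 13.6 to 15.9 CPM in controls and 13.3 to 17.0 CPM in SU libraries, but at no more than 0.261 CPM in any library labelled 5-Htt+/+. Its level was thus higher in libraries labelled as deficient, gene-level counts do not tell its exons apart, and each genotype is the one in the label. Along the first principal component of all 48 libraries, the 6 libraries at the low end included 3 controls (replicates 1, 3 and 7) and 1 SU library (replicate 8) of this comparison. Values without these 6 are given for some results only. A result given without such a value may still rest on them.

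Against control 5-Htt+/- offspring, 4 genes were lower and 1 was higher in the hippocampus of SU 5-Htt+/- offspring. Of 31208 genes tested, 5 passed an adjusted p of 0.05 in edgeR's quasi-likelihood test with Benjamini-Hochberg adjustment, or 0.016%. Described here are Sgk1, Nfkbia and Pim3, which were lower, and the higher transcript, RP23-185B22.1, a long RNA without a coding frame. For each of them the control 5-Htt+/- median lay at one end of the order of all groups, as given below. Sgk1, Nfkbia and Pim3 differed by less than a factor of 1.5 in level and were read at moderate abundance. RP23-185B22.1 differed more and rested on few reads.

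Sgk1 encodes a serum- and glucocorticoid-regulated kinase that acts on ion channels and transporters and is a textbook target of the glucocorticoid receptor. The gene (ENSMUSG00000019970.15) lies on chromosome 10 from 21882184 to 21999903, plus strand. Its promoter sequence is shown because the gene was called and belongs to the list of glucocorticoid-induced genes. RefSeq (GRCm38.p6) gives 6 promoter windows for it, and 3 of these hold the half-site TGTTCT in the 250 bases before the start, on either strand. Of 32851 promoter windows in all, 16.1% hold that half-site. The window printed here, at chr10:21993640-21993889 and chosen after its match was seen, is the one that also holds both half-sites as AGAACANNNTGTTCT, a match found in 3 of the 32851 windows (0.00913%). Of the same list, the windows of Mt1, Mt2, Per1, Gadd45g and Dusp1 were also searched and hold no half-site in those bases. Half-sites are in capitals.
Sgk1 promoter: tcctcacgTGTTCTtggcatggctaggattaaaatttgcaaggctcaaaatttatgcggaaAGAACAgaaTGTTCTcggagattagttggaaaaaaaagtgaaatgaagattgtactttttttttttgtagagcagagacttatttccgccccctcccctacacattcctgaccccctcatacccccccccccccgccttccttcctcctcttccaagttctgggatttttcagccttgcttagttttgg
A match of letters is a description and does not show that a receptor binds there.

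The level of Sgk1 was 60.9 CPM in the lowest control, 74.0 at the median and 88.6 in the highest. In SU libraries it was 45.9 at the lowest, 50.9 at the median and 62.0 at the highest. All but 1 of the 9 SU libraries lay below every control, so the groups overlapped in a single library. Sgk1 was lower in SU libraries by 0.54 on the log2 scale (SE 0.088, 95% interval -0.72 to -0.36), at 0.688 of the control level. Its adjusted p was 0.00463 by edgeR's quasi-likelihood test.

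Nfkbia encodes IκBα, the inhibitor that holds NF-κB in the cytoplasm. Its transcription is raised both by glucocorticoids and by NF-κB itself. The gene (ENSMUSG00000021025.7) lies on chromosome 12 from 55489411 to 55492647, minus strand. The 250 bases before its start (RefSeq, GRCm38.p6, chr12:55492648-55492897, minus strand) are shown as the counterpart of the Sgk1 window. They hold no glucocorticoid half-site and 3 matches of the κB core GGNNNTTCC, searched on both strands and in capitals here, a motif that 15.7% of all 32851 windows hold at least once.
Nfkbia promoter: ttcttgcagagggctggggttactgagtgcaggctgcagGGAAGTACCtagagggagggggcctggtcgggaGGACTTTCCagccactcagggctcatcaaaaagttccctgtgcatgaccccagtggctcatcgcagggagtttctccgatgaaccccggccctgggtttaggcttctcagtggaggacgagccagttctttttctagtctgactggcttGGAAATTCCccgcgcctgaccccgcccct
Nfkbia stood at 10.2, 12.2 and 15.4 CPM in the lowest, median and highest control. The SU libraries stood at 7.36, 8.93 and 10.4 CPM. Again 8 of 9 SU libraries lay below all 7 controls. Nfkbia was 0.53 lower in SU on the log2 scale (SE 0.094, 95% interval -0.72 to -0.34, adjusted p = 0.0153, edgeR's quasi-likelihood test).

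Pim3 (ENSMUSG00000035828.10, chromosome 15, 88862186 to 88865718, plus strand) encodes a serine/threonine kinase that promotes cell survival. Control libraries ranged from 16.3 to 22.7 CPM with a median of 18.7. SU libraries ranged from 12.3 to 16.3 CPM with a median of 14.6. The groups did not overlap, although the highest SU library (16.32 CPM) and the lowest control (16.33 CPM) all but touched. Pim3 was 0.40 lower in SU on the log2 scale (SE 0.078, adjusted p = 0.0364, edgeR's quasi-likelihood test). RefSeq gives its promoter window without the half-site TGTTCT.

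RP23-185B22.1 (ENSMUSG00000109992.1) is annotated as a lincRNA on chromosome 8 from 60719291 to 60725806, plus strand, and no function is stated here for it. It was covered by 2 to 11 reads in controls and 10 to 19 in SU libraries. In CPM the controls lay at 0.0976, 0.250 and 0.430 (lowest, median, highest) and the SU libraries at 0.378, 0.596 and 0.972. Of the SU libraries, 8 of 9 exceeded every control. The RNA was 1.23 higher in SU on the log2 scale (SE 0.25, 95% interval 0.74 to 1.73, adjusted p = 0.0487, edgeR's quasi-likelihood test), 2.35-fold. The nearest protein-coding neighbour, Mfap3l at 42562 bases, had a log2 fold change of 0.22 (unadjusted p = 0.0678).

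**Figure D1:**
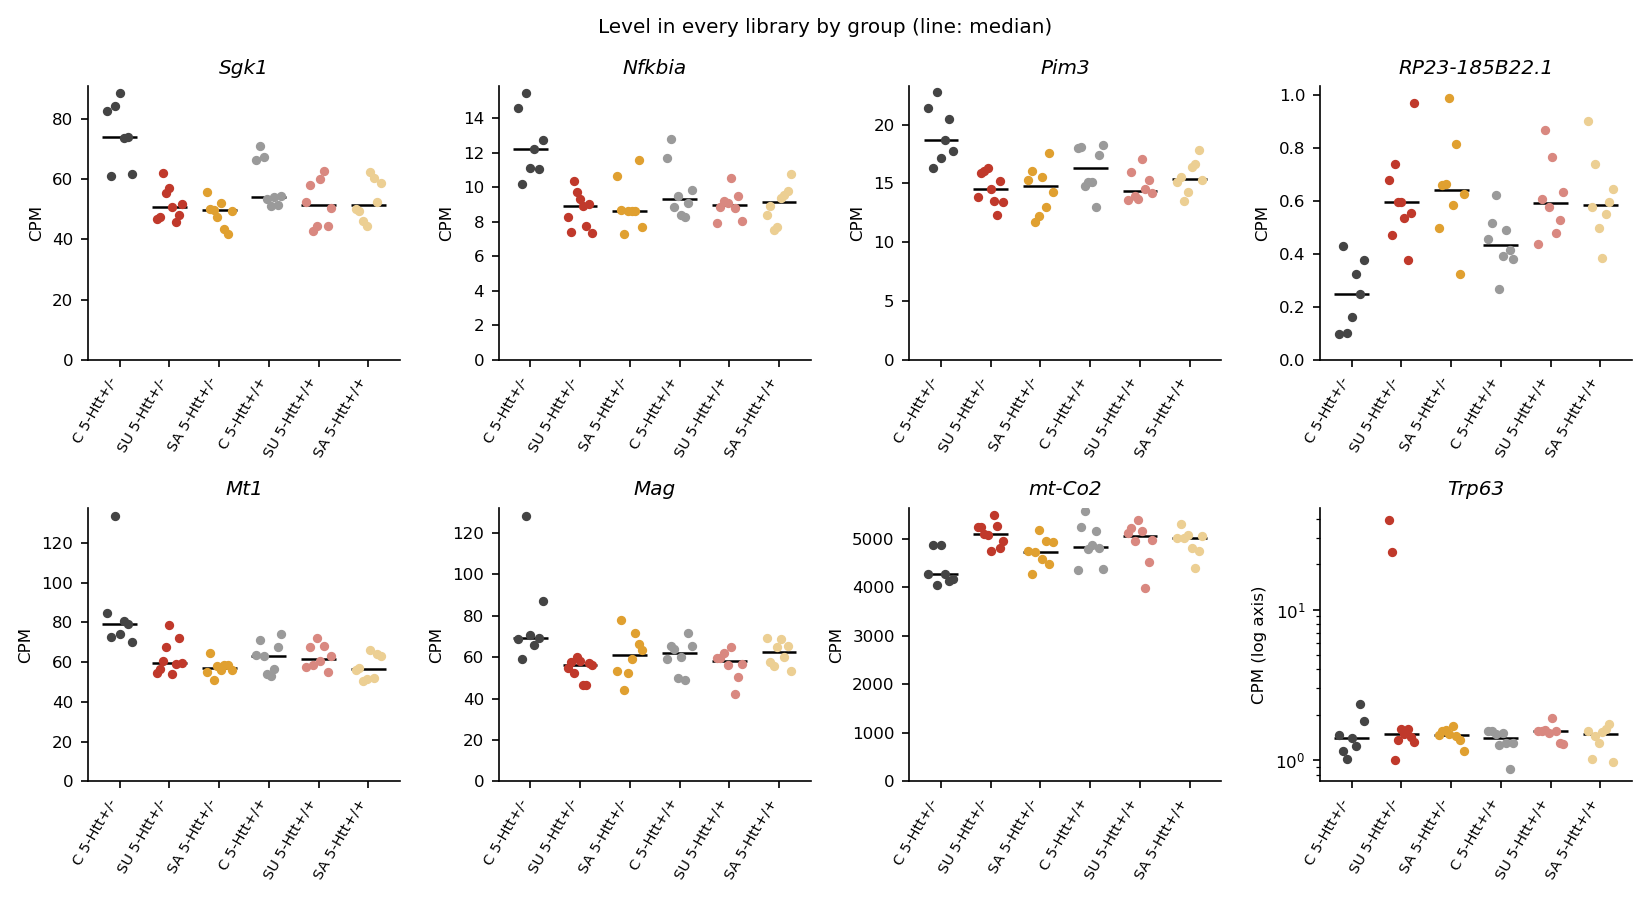
Level (y axis, CPM, log axis for Trp63 only) of 8 genes in each of the 48 libraries (points), by group (x axis), with the group median as a line. For Sgk1 the control 5-Htt+/- libraries sit at 60.9 to 88.6 CPM and the SU 5-Htt+/- libraries at 45.9 to 62.0 CPM, and for Trp63 only 2 SU 5-Htt+/- libraries, at 24.0 and 39.4 CPM, stand above the rest.

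The calls differed in how far they depended on the fit and on single libraries. Sgk1 passed under 26 of 29 alternative fits and with each library left out in turn, Nfkbia under 22 of 29, Pim3 under 17 of 29 and RP23-185B22.1 under 15 of 28. In every one of these fits each gene kept its direction. No gene was called when only the 2 groups were fitted (adjusted p = 0.0781 for Sgk1), when the 6 libraries at the low end of the first component were left out (Sgk1 -0.51, adjusted p = 0.137), or when SU replicates 1 and 2 were both left out (Sgk1 -0.50, adjusted p = 0.0876), all by edgeR's quasi-likelihood test. Nfkbia lost its call without control replicate 1 or 3 (adjusted p = 0.0569 and 0.072, edgeR's quasi-likelihood test). Pim3 and RP23-185B22.1 lost their calls without control replicate 1, control replicate 3 or SU replicate 1, 6 or 9, Pim3 also without SU replicate 7 and RP23-185B22.1 without SU replicate 3. The count of calls ran the other way without control replicate 4 (434 genes), control replicate 2 (94 genes) or SU replicate 4 (39 genes). The likelihood ratio test of edgeR called 88 genes, with all 5 reported calls among them. DESeq2 called 240, with 3 of the 5 among them, and gave RP23-185B22.1 no adjusted p.

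**Figure D2:**
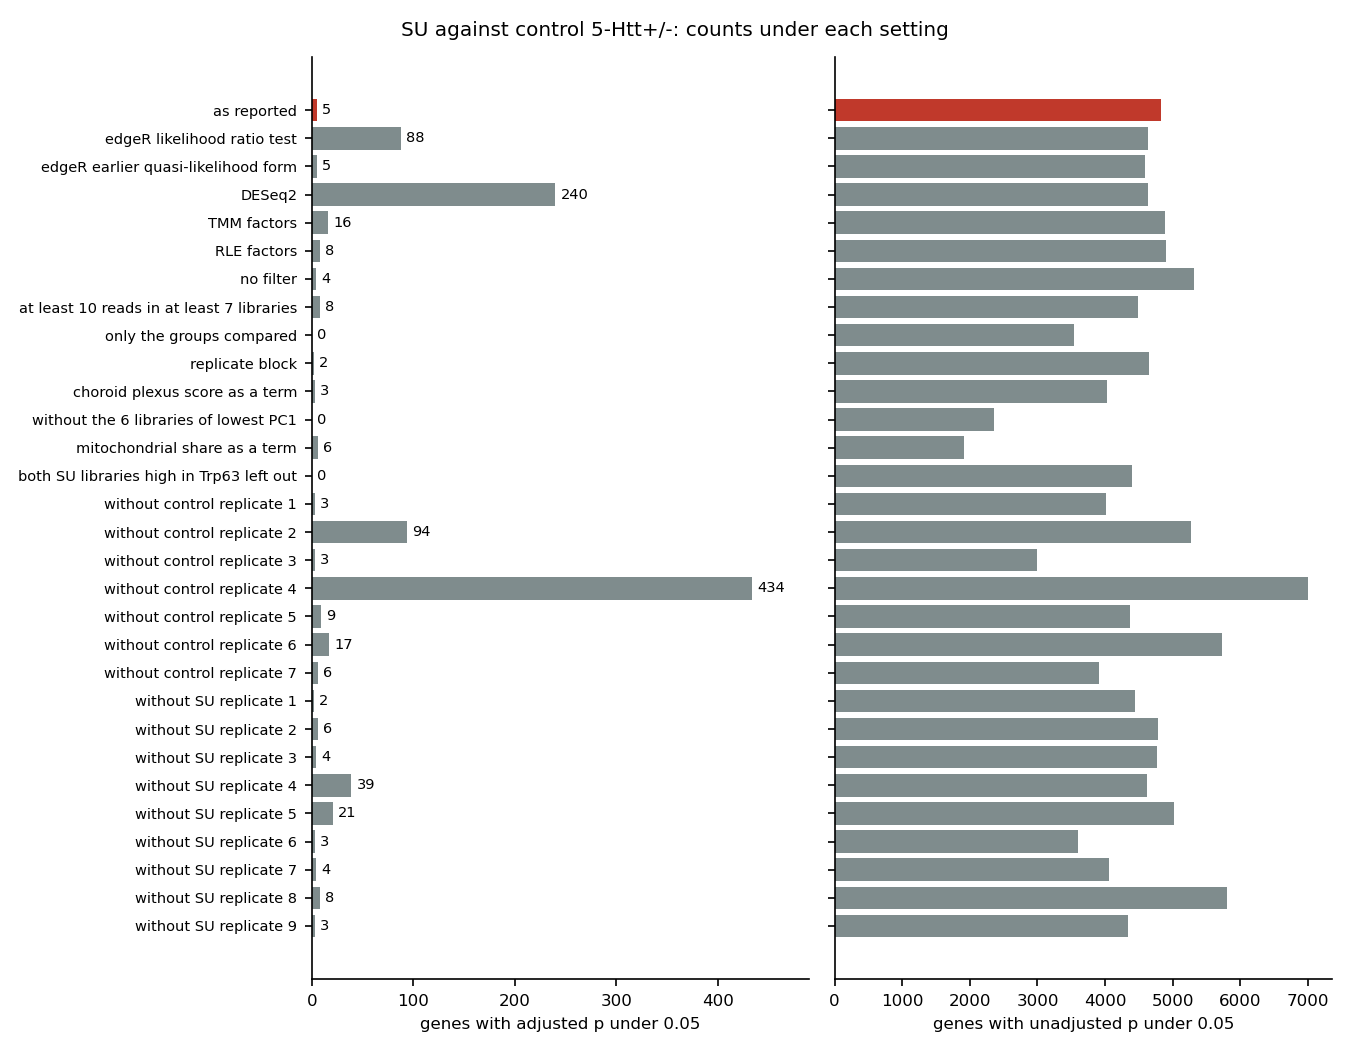
Number of genes with an adjusted p under 0.05 (left, x axis) and with an unadjusted p under 0.05 (right, x axis) under each setting (y axis, 1 bar each, the reported fit in red). Adjusted counts run from 0 to 434 and unadjusted counts from 1916 to 7004 around the reported 5 and 4822.

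Beneath the 5 calls lay a broad and shallow shift, whose extent and direction depended on the fit. An unadjusted p under 0.05 was reached by 4822 genes, 15.5% of those tested, of which 2103 (6.74% of all genes tested) were higher in SU libraries and 2719 (8.71%) lower. The share grew with abundance, from 7.52% of the 1796 genes at up to 0.1 CPM to 14.5% of the 8027 genes between 1 and 10 CPM and 25.3% of the 2145 genes above 100 CPM. Sizes were small. Among genes at 1 CPM or more, the 1670 higher genes had a median log2 fold change of 0.19 and the 2275 lower genes one of -0.20, with 39 and 58 of them past 0.5. The median over all genes was -0.003, and 49.4% of genes were higher. Only 13 genes (0.0417%) had CPM values that did not overlap between the groups, 7 of them higher and 6 lower in SU libraries. They included Pim3, Sgsh, Copb1 and Arhgef10. Without the 6 libraries at the low end of the first component, 2358 genes had an unadjusted p under 0.05, 1273 higher and 1085 lower. With mitochondrial share as a term, added after seeing the data, there were 1916, of which 1008 were higher and 908 lower. The excess of lower genes was thus absent from both fits. As reported, the shares to set beside the counts of each list below are 6.74% higher and 8.71% lower.

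**Figure D3:**
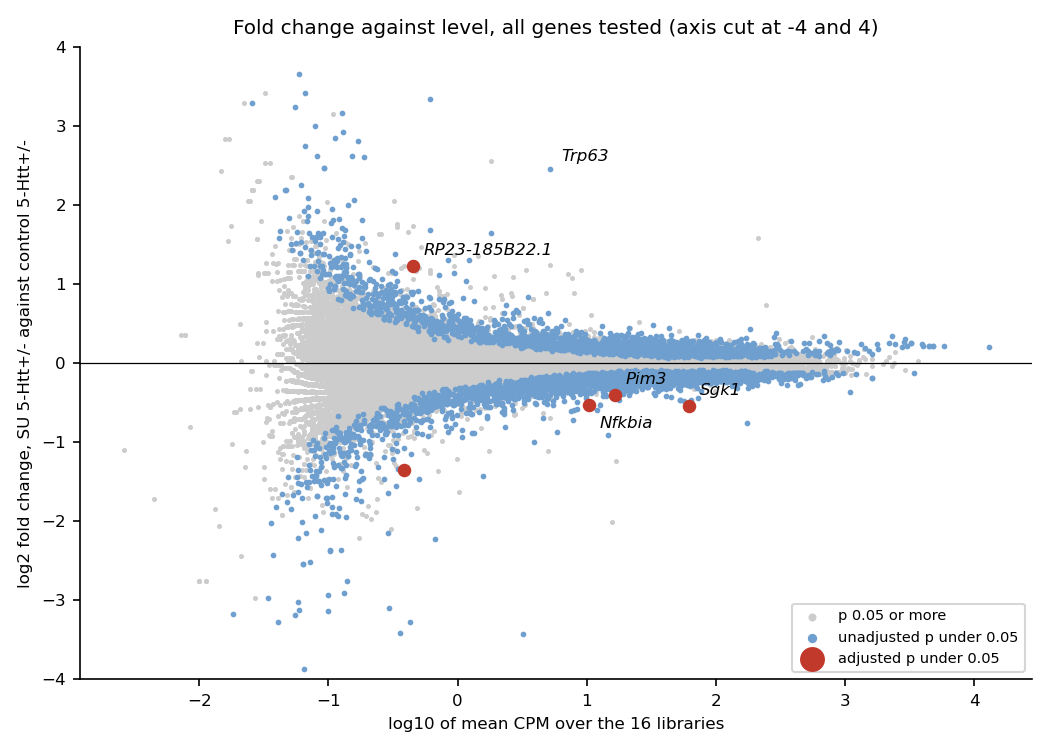
Log2 fold change of SU against control 5-Htt+/- libraries (y axis) against the log10 of the mean CPM over the 16 libraries (x axis) for each gene tested, with unadjusted p under 0.05 in blue and the 5 called genes in red, 4 of them named. Most blue points lie close to 0, with median log2 fold changes of 0.19 and -0.20 for genes at 1 CPM or more, and Trp63 is named as a gene with a large fold change that was not called.

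Mitochondrial reads moved with the groups and are set here before the gene lists. The 13 protein genes of the mitochondrial genome encode core subunits of the respiratory chain and ATP synthase. Reads of the whole mitochondrial genome, ribosomal RNAs included, took 3.43% to 5.56% of counts in controls (mean 4.60% ± 0.678 SD, n = 7) and 4.80% to 5.81% in SU libraries (5.32% ± 0.31, n = 9). The difference of 0.72 percentage points had p = 0.00979 in an exact two-sided permutation test, 0.0392 after Benjamini-Hochberg adjustment over 4 library measures. In the other 4 groups of the series the median share was 5.04% to 5.22%, above the control 5-Htt+/- median of 4.46% and below the SU median of 5.37%. All 13 protein genes had a positive log2 fold change, with a median of 0.22, and none was called. Of these genes, 10 had an unadjusted p under 0.05 (6.74% over all genes tested in that direction). As an example, mt-Co2, a subunit of cytochrome c oxidase, lay at 4049, 4268 and 4873 CPM in the lowest, median and highest control and at 4745, 5092 and 5496 CPM in SU libraries, with 7 of 9 SU libraries above every control. Its log2 fold change was 0.22 (adjusted p = 0.0664, edgeR's quasi-likelihood test), and its reads matched those of the nuclear copy Gm28661 to within 0.0369%, so the copies cannot be told apart. Without the 6 libraries at the low end of the first component, the median of the 13 genes was 0.11.

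A fit with mitochondrial share as a term was added after seeing the data, and moved 61 of 63 genes followed through all fits nearer to 0. The exceptions were Sgk1 (-0.55, adjusted p = 0.0317, edgeR's quasi-likelihood test) and the collagen gene Col1a2 (-0.82). Nfkbia stood at -0.39 and Pim3 at -0.26 in that fit, no longer called. Of genes described below, Mt1 stood at -0.26, Gadd45g at -0.24, Mag at -0.35, Slc2a1 at -0.27, Canx at 0.14 and Hdac2 at 0.11. Whether the share is a cause or a companion of these values was not tested. In bulk tissue, fewer cells of a type and less RNA per cell cannot be told apart, here or in any list below.

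Glucocorticoid-induced genes had values below zero almost throughout in SU against control 5-Htt+/- offspring. Of 25 genes in that list, 24 had a negative log2 fold change and 16 of these an unadjusted p under 0.05 (8.71% over all genes tested in that direction), with a median of -0.26 against -0.003 over all genes. Sgk1 and Nfkbia belong to it and were called. The single gene with a positive value was Pdk4 (0.13), which slows the use of pyruvate in mitochondria. Mean log2 CPM over the list was 4.69, 4.81 and 5.18 in the lowest, median and highest control and 4.48, 4.59 and 4.75 in SU libraries. The upper SU libraries thus overlapped the lower controls. The list's median was -0.19 without the 6 libraries at the low end of the first component and -0.14 with mitochondrial share as a term. SA against the same controls gave 19 members lower and 1 higher at an unadjusted p under 0.05 (12.1% over all genes, either direction). Between control genotypes 17 members were under it (8.51%). Between SU and SA there were 0 (3.79%), with a median of 0.006.

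Next to the calls in this list stood Mt1, Per1 and Gadd45g, none of which passed. Mt1 encodes a metallothionein, a zinc- and copper-binding protein, and was read at 70.0, 79.5 and 133.7 CPM in the lowest, median and highest control and at 54.0, 59.8 and 78.8 CPM in SU libraries. Its high control value came from replicate 3, and 7 of 9 SU libraries lay below all controls. The log2 fold change was -0.44 (adjusted p = 0.0579, edgeR's quasi-likelihood test), and -0.30 without that control. Per1, a clock gene that glucocorticoids also induce, stood at a median of 57.5 CPM in controls and 47.9 CPM in SU libraries, with a log2 fold change of -0.32 (adjusted p = 0.0608). Gadd45g, a stress sensor of the growth arrest and DNA damage family, had a log2 fold change of -0.58 (adjusted p = 0.0649), and -0.40 without control replicate 3. Dusp1, the phosphatase that switches off MAP kinases, stood at -0.60 (unadjusted p = 0.00113). Fkbp5, which encodes a co-chaperone that lowers hormone binding by the receptor, stood at -0.16 (unadjusted p = 0.0104). By contrast, Klf9, another direct target, stood at -0.006 (unadjusted p = 0.943).

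The receptors themselves had values near zero. In the list of corticosteroid receptors, their chaperones and the CRH system, 13 of 15 genes were higher and 3 of these had an unadjusted p under 0.05 (6.74% over all genes), but the median was 0.03. Nr3c1, the glucocorticoid receptor, was read at 57.7, 68.2 and 85.6 CPM in the lowest, median and highest control and at 68.5, 76.6 and 89.4 CPM in SU libraries, largely overlapping. Its log2 fold change was 0.17 (unadjusted p = 0.0476), and -0.01 with mitochondrial share as a term. The chaperones Hsp90aa1 and Ptges3, which fold the receptor, stood at 0.27 and 0.22 (unadjusted p = 0.00683 and 0.00318). Nr3c2, the mineralocorticoid receptor, had a log2 fold change of 0.06.

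Most other members of the pathways of the called genes had small values. Among 18 NF-κB subunits, kinases and inhibitors the median was -0.06, with 12 lower genes, 3 of them at an unadjusted p under 0.05, and 6 higher genes, 1 of them under 0.05. Rela, the activating subunit, stood at -0.19 (unadjusted p = 0.00908), or -0.12 without control replicate 3. Nfkbib, a second inhibitor, stood at -0.15, and 0.006 with mitochondrial share as a term. Cyld, a deubiquitinase that limits the pathway, was the higher gene, at 0.16. Among 10 SGK, PIM and AKT kinases the median was -0.08. Sgk2, a relative of Sgk1 with restricted expression, had a log2 fold change of -0.50 at levels of 0.455 to 2.25 CPM (unadjusted p = 0.0196), whereas Pim1 stood at -0.07 and Pim2 at 0.04.

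Myelin genes also had negative values in nearly all members. Of 18 genes of mature myelin, 13 were lower at an unadjusted p under 0.05 (8.71% over all genes tested in that direction). In all, 17 had a negative log2 fold change, the list's median was -0.28 and none was called. Ermn, a cytoskeletal protein of late oligodendrocytes, was the exception at 0.03. Mag encodes a glycoprotein of the innermost myelin layer that faces the axon. It was read at 59.1, 69.4 and 128.0 CPM in the lowest, median and highest control and at 46.7, 56.3 and 60.3 CPM in SU libraries. Only 1 SU library reached the range of the controls, whose highest value came from replicate 3. The log2 fold change of Mag was -0.53 (SE 0.11, adjusted p = 0.0567, edgeR's quasi-likelihood test), -0.37 without control replicate 3 and -0.30 without the 6 libraries at the low end of the first component.

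Further myelin genes had the same sign. Cldn11, the tight-junction claudin of myelin, stood at -0.47 (adjusted p = 0.0649, edgeR's quasi-likelihood test), Myrf, the transcription factor that drives myelin genes, at -0.35 (adjusted p = 0.0664), and Mbp, myelin basic protein, at -0.37 (adjusted p = 0.0848). Mbp was read at 945 to 1778 CPM in controls and 863 to 1088 CPM in SU libraries. The list's mean log2 CPM was 5.76, 6.06 and 6.44 in the lowest, median and highest control and 5.56, 5.75 and 5.89 in SU libraries, so the upper SU libraries overlapped the lower controls. Its median was -0.19 without the 6 libraries at the low end of the first component and -0.26 with mitochondrial share as a term. SA against the same controls gave 10 members lower and 0 higher at an unadjusted p under 0.05 (12.1% over all genes, either direction). Between control genotypes 11 members were under it (8.51%). Between SU and SA there were 0 (3.79%), with a median of -0.11.

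Genes of oligodendrocyte precursors and the lineage shared the sign of the myelin list. Of 12 genes, 11 had a negative log2 fold change, and the median was -0.20. Of the lower genes, 6 had an unadjusted p under 0.05 (8.71% over all genes tested in that direction). Cspg4, the NG2 proteoglycan of precursor cells, was read at 13.5, 15.6 and 17.1 CPM in the lowest, median and highest control and at 11.1, 12.6 and 14.5 CPM in SU libraries, with 8 of 9 SU libraries below all controls. Its log2 fold change was -0.29 (unadjusted p = 0.000523). Sox10 and Olig1, transcription factors of the lineage, stood at -0.34 and -0.31 (unadjusted p = 0.000556 and 0.00162), while Lhfpl3 stood at 0.12. The median of this list rested in part on control replicate 3, being -0.13 without it, and it was -0.11 both without the 6 libraries at the low end of the first component and with mitochondrial share as a term.

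No protein-coding gene with a higher level in SU libraries was called. Canx, a chaperone of the endoplasmic reticulum, was read at 221, 277 and 293 CPM in the lowest, median and highest control and at 290, 322 and 366 CPM in SU libraries. All but 1 SU library exceeded every control. The log2 fold change of Canx was 0.25 (adjusted p = 0.0649, edgeR's quasi-likelihood test). Copb1, a coat protein of vesicles that shuttle from the Golgi, showed no overlap, at 53.4 to 57.5 CPM in controls and 58.2 to 67.5 CPM in SU libraries (log2 fold change 0.17, adjusted p = 0.0649). Hdac2, a histone deacetylase of neurons, had a log2 fold change of 0.20, Psmd13, a proteasome subunit, one of 0.18, and Hsdl2, a peroxisomal dehydrogenase-like protein, one of 0.25, all at an adjusted p of 0.0649. Among heat shock and chaperone genes, 14 of 20 were higher, 9 of them at an unadjusted p under 0.05 (6.74% over all genes). Of the 6 lower ones, 3 were under it as well (8.71% over all genes). The median was 0.07, or 0.04 without SU replicate 8 and 0.11 with mitochondrial share as a term. Hspa5 and Hsp90b1 of the endoplasmic reticulum stood at 0.38 and 0.33, and Dnaja1 at 0.21 (adjusted p = 0.0664), whereas the stress-inducible Hspa1a stood at -0.17 and Bag3 at -0.29.

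Further genes just short of the threshold in edgeR's quasi-likelihood test, at adjusted p-values of 0.0567 to 0.0664, belong to none of the lists. Sgsh, a lysosomal enzyme that breaks down heparan sulphate, was read at 5.51, 5.82 and 7.29 CPM in the lowest, median and highest control and at 3.93, 4.52 and 5.09 CPM in SU libraries, without overlap (log2 fold change -0.40). Tnxb, a protein of the extracellular matrix, stood at -0.46, Tns2, which links the cytoskeleton to adhesion sites, at -0.40 and Rtkn, which encodes rhotekin, at -0.28. In SU libraries the higher genes included AA474408 (0.84), at 1.31 to 3.82 CPM in controls and 3.06 to 7.72 CPM in SU libraries, Gm12355 (0.25), Rida (0.28) and C1d (0.24). The last of these acts with the exosome in RNA processing.

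Immediate early, Notch and clock genes leaned towards lower values. Over all genes tested, 8.71% were lower at an unadjusted p under 0.05. Immediate early genes, which neurons switch on within minutes of activity, had 18 of 22 genes lower and a median of -0.25, yet only 3 of the lower genes were at an unadjusted p under 0.05, and the median was -0.16 without control replicate 6. Nr4a1 was read at 30.3 to 87.1 CPM in controls and 25.6 to 52.9 CPM in SU libraries (log2 fold change -0.43, or -0.26 without control replicate 3), while Nr4a2 of the same family stood at 0.21. Of 18 Notch genes, 15 were lower and 7 of these at an unadjusted p under 0.05, including Lfng, which adds sugars to Notch (-0.38), and the receptor Notch4 (-0.39). Of 17 circadian clock genes, 10 were lower, 6 of them at an unadjusted p under 0.05, among them the repressor Ciart (-0.39) and Nr1d1 (-0.20). With mitochondrial share as a term, the medians of immediate early, Notch and clock genes were -0.07, -0.02 and -0.04, against -0.25, -0.08 and -0.06 as reported, and the clock median was -0.03 without control replicate 4 and -0.04 without SU replicate 7. Slc2a1, the glucose transporter of the blood-brain barrier, was read at 50.4 to 88.0 CPM in controls and 39.2 to 53.3 CPM in SU libraries, with a log2 fold change of -0.48 (adjusted p = 0.0608, edgeR's quasi-likelihood test), although 8 of the 14 genes of endothelium and barrier transport were higher and their median was 0.009.

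**Figure D4:**
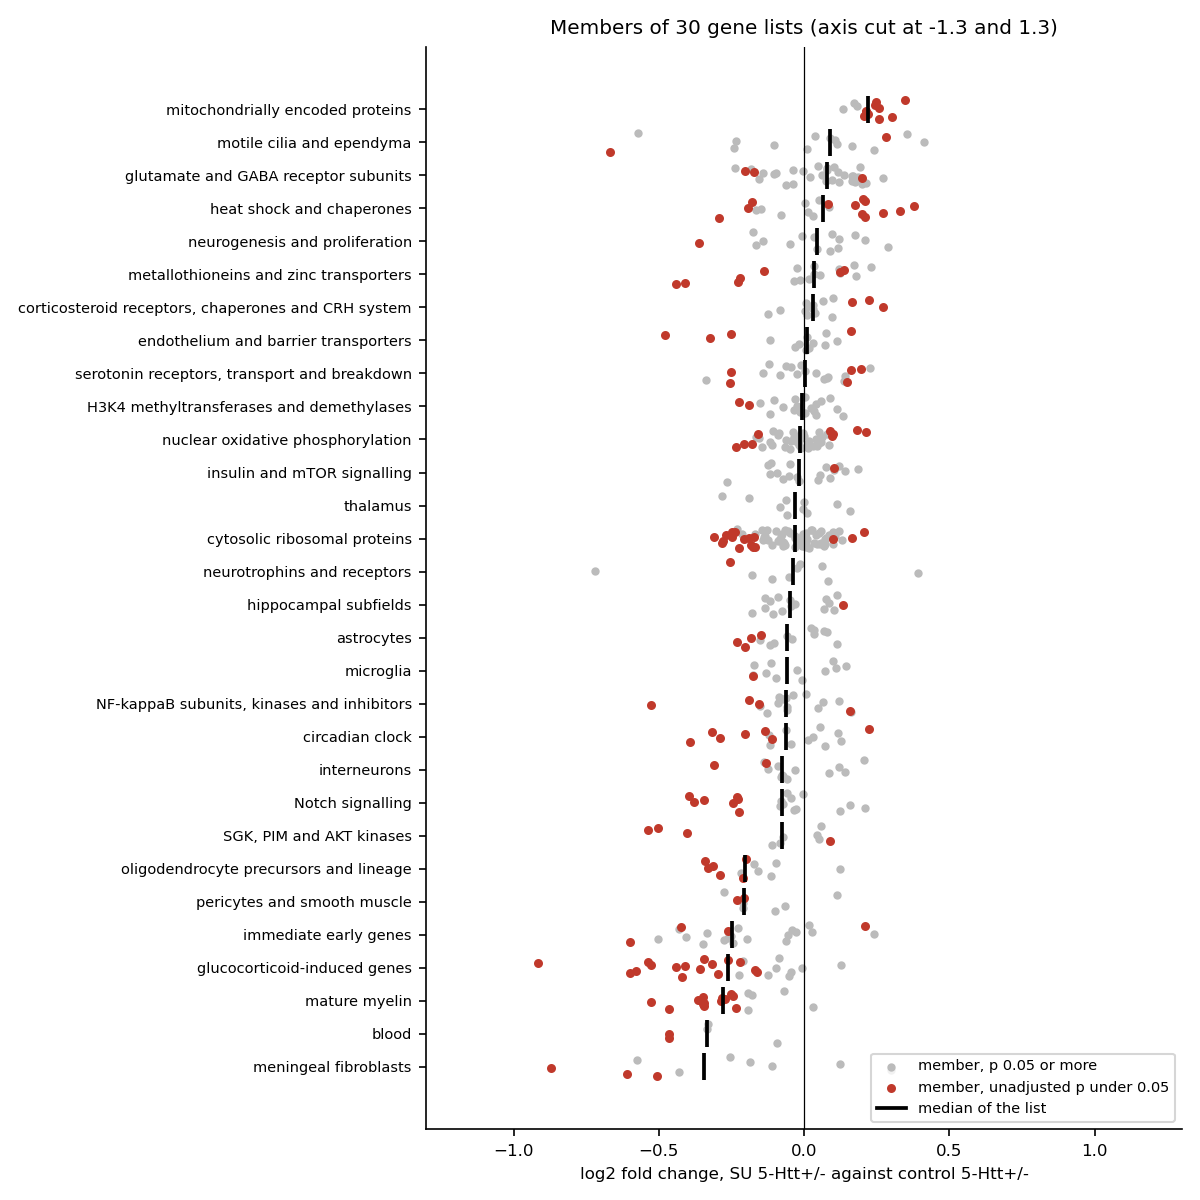
Log2 fold change of SU against control 5-Htt+/- libraries (x axis) for each member (points) of 30 of the 33 gene lists (y axis; choroid plexus, pituitary and pineal, and the study's own list left out), with members at an unadjusted p under 0.05 in red and each list's median as a black bar. Medians run from -0.34 for meningeal fibroblast genes to 0.22 for mitochondrially encoded proteins, and the glucocorticoid-induced and mature myelin lists lie at -0.26 and -0.28.

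Markers of other cells that a dissected hippocampus can hold varied widely between libraries. All 12 choroid plexus genes had a positive log2 fold change (median 0.87) but none had an unadjusted p under 0.05. Ttr, the thyroid hormone carrier made by that tissue, ran from 5.99 to 575 CPM in controls and from 5.65 to 772 CPM in SU libraries, high in 1 of 7 controls and 6 of 9 SU libraries. Without that control, replicate 5, the list's median was 1.86. With the choroid plexus score as a term, the glucocorticoid-induced and myelin medians were -0.28 and -0.25. Meningeal fibroblast genes had 8 of 10 members lower and a median of -0.34, or -0.08 without control replicate 4 and -0.61 without the 6 libraries at the low end of the first component. Lum and Dcn, which such cells make in quantity, stood at 0.12 and 0.30, and the collagen genes Col1a1 and Col1a2 stood at -0.51 and -0.61. All 5 blood genes were lower, at a median of -0.33, with 2 under an unadjusted p of 0.05, namely the α-globin copies Hba-a1 and Hba-a2, whose counts matched to within 0.83%. Pericyte and smooth muscle genes had a median of -0.21, or -0.14 without control replicate 3 and -0.12 without control replicate 4. The part of these cells in the results was not tested beyond these fits.

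Apart from oligodendrocytes and the pericytes and smooth muscle above (median -0.21), lists for resident cells had medians between -0.08 and 0.08. Astrocyte genes had a median of -0.06, with 4 of 15 lower at an unadjusted p under 0.05, among them Fgfr3 (-0.23) and Aldh1l1 (-0.20). Microglial genes had a median of -0.06 and 1 of 12 under 0.05. Genes of hippocampal subfields and of interneurons had medians of -0.05 and -0.08. Slc32a1, the vesicular GABA transporter, stood at -0.31 (unadjusted p = 0.00567), but at -0.07 without the 6 libraries at the low end of the first component and 0.03 with mitochondrial share as a term. Genes of glutamate and GABA receptors had a median of 0.08 with 3 of 34 under 0.05.

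Genes of the serotonin system had values scattered around zero. Of 21 genes, 11 were higher and 10 lower, with 3 and 2 at an unadjusted p under 0.05 and a median of 0.004. Slc6a4 itself differed little, at medians of 15.5 CPM in controls and 14.8 CPM in SU libraries (log2 fold change -0.01, SE 0.066). Maob and Maoa, the enzymes that break down monoamines, stood at 0.19 and 0.16 (unadjusted p = 0.00984 and 0.0182). Ddc, which makes serotonin and dopamine from their precursors, stood at -0.26 (unadjusted p = 0.00877), and the receptor gene Htr6 at -0.25 (unadjusted p = 0.029). The receptor gene Htr1a had a log2 fold change of 0.15 (unadjusted p = 0.0419) and Htr2a one of 0.08 (unadjusted p = 0.446). None of these genes was called.

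The remaining lists had medians close to 0, with p-values below 0.05 in some members of most. Over all genes tested, 6.74% were higher and 8.71% lower at that threshold. Cytosolic ribosomal protein genes had 49 of 78 members lower, 14 of them at an unadjusted p under 0.05, and a median of -0.03, which was 0.10 without the 6 libraries at the low end of the first component. Nuclear genes of oxidative phosphorylation had 5 higher and 4 lower of 45 at an unadjusted p under 0.05 and a median of -0.01, unlike their mitochondrially encoded partners. H3K4 methyltransferases and demethylases, of which Men1 stood at -0.22, had 2 of 20 lower at an unadjusted p under 0.05 and a median of -0.007. Insulin and mTOR genes had a median of -0.02, neurotrophins and their receptors one of -0.04, and neurogenesis genes one of 0.04. Of 19 metallothioneins and zinc transporters, 5 were lower and 2 higher at an unadjusted p under 0.05, with a median of 0.03. The lower ones were Mt1, Mt2 (-0.41), Mt3 (-0.23), Slc30a3, which loads zinc into synaptic vesicles (-0.22), and Slc39a1 (-0.14), and the higher ones were Slc30a9 (0.12) and Slc39a10 (0.14). The genes that the study listed for its three-way interaction, which were chosen on these same libraries, had 1 of 20 at an unadjusted p under 0.05 in each direction and a median of -0.05. Of the genes fixed by name, Otop2 stood at 0.02, Gm9847 at 0.04, Ccl21b at -0.06, Mapk15 at 0.15, Kif14 at -0.05 and Entpd1 at 0.09. Motile cilia and ependymal genes had a median of 0.09, thalamic genes one of -0.03 and pituitary and pineal genes one of 0.10.

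The levels of the called genes were also read in the other groups. Sgk1 had a median of 74.0 CPM in control 5-Htt+/- libraries, against 50.9 CPM in SU and 49.7 CPM in SA 5-Htt+/- libraries and 54.2 CPM in control, 51.4 CPM in SU and 51.3 CPM in SA 5-Htt+/+ libraries. For Nfkbia the control 5-Htt+/- median was 12.2 CPM and the other 5 medians were 8.61 to 9.29 CPM. For Pim3 it was 18.7 CPM against 14.4 to 16.3 CPM, and for RP23-185B22.1 0.250 CPM against 0.436 to 0.644 CPM. In all 4 genes the control 5-Htt+/- median was thus at one end of the order. The genes were chosen on the control and SU 5-Htt+/- libraries, so the place of those medians in the order is a description.

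Fitted values for the same genes are given side by side, since the comparisons of control genotypes and of SA against control share the control 5-Htt+/- libraries with the main one, whereas that within 5-Htt+/+ shares none. Against control 5-Htt+/+, control 5-Htt+/- libraries had log2 fold changes of 0.36 for Sgk1, 0.36 for Nfkbia, 0.25 for Pim3 and -0.78 for RP23-185B22.1. SA against the same controls gave -0.62, -0.48, -0.41 and 1.33 in that order. Over all genes, an unadjusted p under 0.05 was reached by 8.51% in the comparison of control genotypes and 12.1% in that of SA against control, with 5 and 9 genes called by edgeR's quasi-likelihood test. Between SU and control 5-Htt+/+ libraries the share was 3.37%, with 6 calls, and Sgk1 stood at -0.17, Nfkbia at -0.11, Pim3 at -0.13 and RP23-185B22.1 at 0.50. Median values of the glucocorticoid-induced list were -0.26 for SU and -0.29 for SA against control 5-Htt+/-, 0.17 between control genotypes and -0.08 for SU against control 5-Htt+/+. The myelin list had -0.28, -0.21, 0.24 and 0.005 in the same order.

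Whether the SU minus control difference itself differed between genotypes was tested as an interaction. No gene passed by edgeR's quasi-likelihood test (smallest adjusted p among the named genes 0.469), 1764 genes (5.65%) had an unadjusted p under 0.05, and DESeq2 called 1. The difference, 5-Htt+/- minus 5-Htt+/+, was -0.36 for Sgk1, -0.41 for Nfkbia, -0.27 for Pim3 and 0.73 for RP23-185B22.1. Their adjusted p in edgeR's quasi-likelihood test ran from 0.752 to 0.869. These genes had been chosen on the 5-Htt+/- contrast that enters the difference. A genotype-specific response of any of them was therefore not shown.

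**Figure D5:**
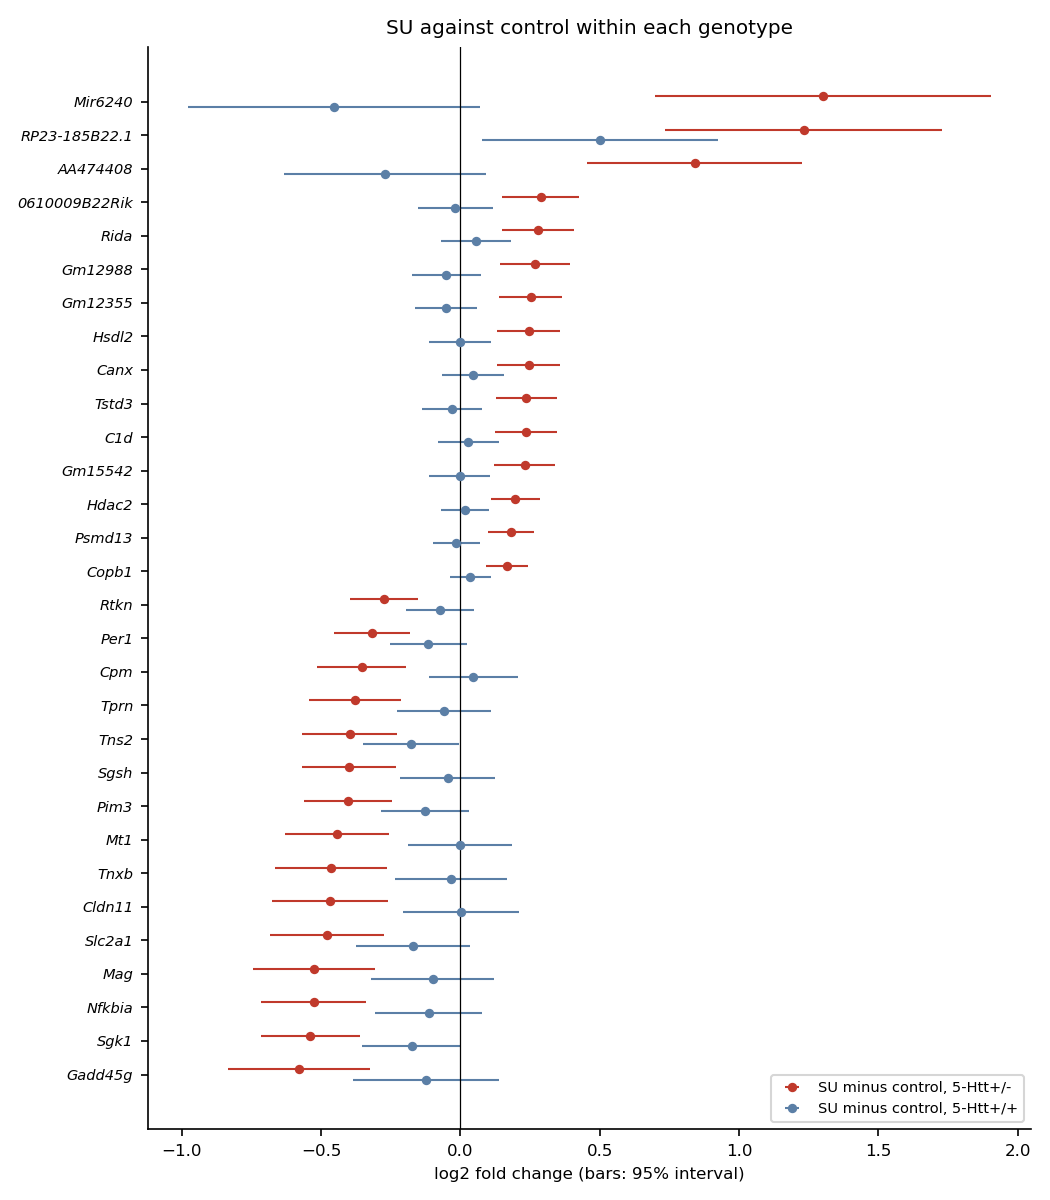
Log2 fold change of SU against control libraries (x axis, points, with 95% intervals as bars) within 5-Htt+/- (red) and within 5-Htt+/+ (blue) for the genes lowest in p in the 5-Htt+/- comparison (y axis), Trp63 left out. The genes were chosen on the red values, which therefore lie away from 0, and Sgk1 stands at -0.54 in red and -0.17 in blue.

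Between socially unaffected and affected 5-Htt+/- offspring, which share the prenatal exposure, no gene passed edgeR's quasi-likelihood test. An unadjusted p under 0.05 was reached by 1183 genes (3.79%), the likelihood ratio test of edgeR called 1 and DESeq2 called 0. The SU minus SA difference was 0.08 for Sgk1 (95% interval -0.09 to 0.26), -0.05 for Nfkbia (-0.24 to 0.14), 0.004 for Pim3 (-0.15 to 0.16) and -0.09 for RP23-185B22.1 (-0.47 to 0.29). Intervals of this width leave differences of a size that could not be detected with these numbers of animals.

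Trp63, which encodes the p53 relative p63, a transcription factor of stratified epithelia, had the largest fold change among genes just short of the threshold (log2 fold change 2.45, adjusted p = 0.0649, edgeR's quasi-likelihood test). It lies on chromosome 16 from 25683763 to 25892102. The value came from 2 of 9 SU libraries. SU replicate 1 held 1100 reads (39.4 CPM) and SU replicate 2 held 509 reads (24.0 CPM), whereas the other 46 libraries of the series ran from 0.873 to 2.37 CPM with a median of 1.48. The other 7 SU libraries lay at 1.005 to 1.62 CPM and the controls at 1.012 to 2.37 CPM. Trp63 was the only gene at 1 CPM or more in both libraries that was at least 2 times as high in each as in any other library. With both left out, in a fit added after seeing the data, its log2 fold change was -0.07 (adjusted p = 0.844). Sgk1 stood at -0.50 and Nfkbia at -0.49 without these libraries, both at an adjusted p of 0.0876.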

How the data were processed

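Hippocampal RNA of the 48 libraries was sequenced single-end. According to the submitters' notes, STAR and HTSeq were run on GRCm38.p5, with DESeq2 also listed, whereas the study's methods name STAR, Salmon and tximport. Neither source gives versions, strand setting or the treatment of multi-mapped reads. The authors deposited whole-number counts per gene, not normalised, for 48440 genes with Ensembl identifiers and symbols in 1 table, in which no row lacks a gene.

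A gene entered the fit when 3 libraries or more held 5 reads or more (31208 genes). Each library was taken as 1 animal and placed by its label. The labels give 7 control and 9 SU 5-Htt+/- animals. Counts of all 48 libraries were fitted together with 1 coefficient for each of 6 groups in edgeR 4.0.16 (R 4.3.3) after upper quartile scaling, and contrasts were tested with the quasi-likelihood F test and Benjamini-Hochberg adjustment over all genes (threshold 0.05). All p-values of genes, adjusted and unadjusted, come from that test unless another tool is named. Log2 fold changes are fitted values, and 95% intervals derive from their standard errors. CPM are counts per scaled library size. Principal components were computed on log2 CPM with a prior count of 2. Intervals cover counting and the spread between libraries within groups, in which animal and preparation cannot be told apart. They do not cover a difference in preparation between groups. In simulated counts of this comparison (31208 genes, 50 changed per fold), 32% of genes changed 1.25-fold and 68% of those changed 1.5-fold were recovered. At 2-fold it was 68% and at 4-fold 84%, with 7 false calls. Those counts were drawn gene by gene, without variation shared between the genes of a library. With 200 changed genes, the adjusted threshold was also easier to reach than in data with few calls. Recovery in the real data may thus be lower.

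The 33 gene lists and the comparison were chosen with earlier results of these data known. Genes named were the called genes, the 15 genes of smallest p in each direction at a mean of 1 CPM or more, for each list the 4 members of smallest p at most, and 8 genes fixed by name (Slc6a4 and 7 that the study names). List members named outside these, Trp63's libraries and the genes without overlap were chosen after their values were seen. Of 57 pairs of libraries within groups, none matched within sampling noise (smallest chi-square per gene 3.96). Alternatives were other tests (edgeR's likelihood ratio and earlier quasi-likelihood forms, DESeq2 1.42.0), TMM and RLE factors, other filters, a fit of the compared groups alone, a replicate block, a choroid plexus term, the 6 libraries at the low end of the first component left out and each library left out in turn. After seeing the data, a mitochondrial share term and the removal of both Trp63-high SU libraries were added. Promoter sequences are from RefSeq (GRCm38.p6), with an entry for the 3 genes described that were lower in SU libraries. A few results, among them 1 called gene, are not reported here.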

Additional observations from a re-analysis of the deposited data

Results flagged for a closer look

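Single libraries lay far from the rest of their group in 13 of 140 sets of values checked (9.29%). No chance rate is set beside this share, because many sets are correlated or were chosen for their values. Of the 13 flags, 8 came from control replicate 3. That library was highest among the controls for Mt1 (133.7 CPM, the nearest other control at 84.58), Gadd45g (18.12 CPM), Mag (128 CPM), Cldn11 (113.5 CPM), Sox8 (37.1 CPM), Sgsh (7.288 CPM) and Rela (17.56 CPM), and lowest for Canx (221 CPM). Control replicate 6 was highest for Nr4a2 (51.18 CPM). Control replicate 5 stood apart in Ttr (575 CPM) and in the mean log2 CPM of the choroid plexus genes (3.531). Among SU libraries, replicate 3 was highest for AA474408 (7.722 CPM) and replicate 8 was lowest for Hsp90aa1 (728 CPM).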

How the results depend on the processing

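Against 5 called genes, other settings gave 88 (edgeR likelihood ratio test), 240 (DESeq2, 17292 genes with an adjusted p), 16 (TMM factors), 8 (RLE factors), 8 (at least 10 reads in at least 7 libraries), 3 (choroid plexus score as a term), 0 (only the groups compared), 0 (without the 6 libraries of lowest first component) and, added after seeing the data, 0 (both Trp63-high SU libraries left out). With a replicate block 2 were called. Same-numbered libraries did not deviate together (7 pairs, correlations -0.12 to 0.267, median 0.0106, 1 best with its own number), so the numbers were not taken as pairs. Leaving out each library in turn gave 2 to 434 calls and 2996 to 7004 genes at an unadjusted p under 0.05, of which there were 2358 without the 6 libraries and 1916 with mitochondrial share as a term. Calls lower in SU libraries made up 80% as reported and 54.5% in the likelihood ratio test, 59.2% in DESeq2. The genotype difference gave 1 call in DESeq2, 1 without both Trp63-high libraries and 0 to 2 with a library left out. SU against SA gave 1 in the likelihood ratio test. Control genotypes gave 2 when fitted alone, 3 with mitochondrial share and 3 to 8 with a library left out. With mitochondrial share as a term, Slc32a1 (0.0304), Nfkbib (0.00604), Nr3c1 (-0.0139) and the medians of hippocampal subfield (0.0666) and interneuron genes (0.0329) and of the study's list (0.0170) changed sign. The medians of NF-κB genes (-0.00268) and of mitochondrially encoded genes (-0.00235), whose reads enter the term, came close to 0. Trp63 was at -0.0723 without both its high libraries. Leave-one-out ranges were -0.0424 to 0.0330 for the median of insulin and mTOR genes, -903700 to 2283000 for the SU minus control difference in total counts and 13.99 to 27.74 for that in the first component, which reached an exact permutation p of 0.0188 without control replicate 4. The causes were not tested. Genes at few reads, such as RP23-185B22.1, are limited by depth.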

Other observations

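Prolactin (Prl) and growth hormone (Gh), which the pituitary makes, were at or near 0 in most of the 16 libraries, with medians of 0.0477 CPM for Prl in controls and 0.0529 CPM in SU libraries. Prl reached 8.04 CPM in control replicate 5 and 6.27 CPM in SU replicate 8, and Gh reached 3.83 and 2.42 CPM in the same libraries. Tph1, the tryptophan hydroxylase of the pineal gland, lay between 0.253 and 0.750 CPM in controls. It was at 2.40, 1.94 and 1.46 CPM in SU replicates 9, 6 and 2, and at no more than 0.567 CPM in the other SU libraries. Its log2 fold change was 1.11 (unadjusted p = 0.0325 in edgeR's quasi-likelihood test).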
